A study of Mus musculus with 3 samples.

Results

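Regions where a Flag-Bcl11a CUT&Tag summit lay close to the ends of 2 or more protein-coding genes were 1390 of the 22987 regions that held a peak of all 3 libraries (6.05%). Peaks of the 3 libraries that overlapped by at least 1 bp on chromosomes 1 to 19, X and Y were joined, and a region was kept when every library had a peak in it. The summit of a region was the mean position, over libraries, of the summit of each library's widest peak. A region belonged to the set when that summit lay within 1 kb of an outer end, the annotated start or finish, of at least 2 different protein-coding genes. The rule used position and the presence of a called peak in every library, which is itself a threshold on signal, so the strength of members is compared below only with other regions that passed it. Gene orientation and sequence were not used. A further 7123 regions lay within 1 kb of the end of 1 coding gene and are called single-end regions, and 14474 lay at no coding gene end.

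The cells were LSK cells of mouse bone marrow, a sorted population of stem cells and early progenitors that lacks lineage markers and carries Sca-1 and Kit. According to the design text, the mice carried Bcl11a with a 3xFlag tag added at its N-terminus by knock-in, although each sample's genotype label reads wildtype. The 3 libraries form 1 group with no second condition, and the labels give neither ages nor separate animals, so the spread between libraries may be technical. CUT&Tag brings a transposase to chromatin through an antibody, and without an untagged library, which was not analysed here, binding of Bcl11a cannot be told apart from tagging of open chromatin. Signal in fewer cells and weaker signal per cell cannot be told apart either.

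Genes are often arranged so that their ends lie close together. When both genes of a pair are transcribed away from a short shared segment they are called head-to-head, or divergent, and the segment works as a bidirectional promoter, typically inside a CpG island, a stretch that keeps its CG dinucleotides. Housekeeping genes of DNA repair, translation and mitochondria are well known for this arrangement. In a head-to-tail pair the finish of one gene lies next to the start of the next on the same strand, and in a tail-to-tail, or convergent, pair the finishes meet. Bcl11a is a zinc finger repressor of blood cells and neurons, best known for silencing fetal globin genes through the motif TGACCA.

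Sequences at the starts of 4 head-to-head members with strong signal are shown first, as examples of what a single region at divergent starts holds. They are 300 bases from RefSeq for GRCm38.p6, the assembly behind mm10, read 5′ to 3′ on the strand of the named gene, with CG dinucleotides in capitals. Base 251 is the transcript start on which the RefSeq window is placed. It can differ from the outer end used to choose the members, which falls at base 251 for Dtl and Smim7, base 147 for Phf14 and base 94 for Atm. Starts of partners are given by their outer ends. Dtl lies at chr1:191575495-191575794 (minus strand), and the start of its partner Ints7 falls at base 255. Phf14 lies at chr6:11907579-11907878 (plus strand), and the start of its partner Ndufa4 lies outside the window. Smim7 lies at chr8:72570999-72571298 (minus strand), with the Tmem38a start at base 110. Atm lies at chr9:53536622-53536921 (minus strand), with the Npat start at base 33.
Dtl: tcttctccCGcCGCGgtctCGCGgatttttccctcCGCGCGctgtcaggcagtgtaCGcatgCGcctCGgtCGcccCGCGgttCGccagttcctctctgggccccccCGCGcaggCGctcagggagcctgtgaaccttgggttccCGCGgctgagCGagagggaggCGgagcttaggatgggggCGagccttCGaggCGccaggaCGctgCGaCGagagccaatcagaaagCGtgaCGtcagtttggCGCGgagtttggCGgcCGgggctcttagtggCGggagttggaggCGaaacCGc
Phf14: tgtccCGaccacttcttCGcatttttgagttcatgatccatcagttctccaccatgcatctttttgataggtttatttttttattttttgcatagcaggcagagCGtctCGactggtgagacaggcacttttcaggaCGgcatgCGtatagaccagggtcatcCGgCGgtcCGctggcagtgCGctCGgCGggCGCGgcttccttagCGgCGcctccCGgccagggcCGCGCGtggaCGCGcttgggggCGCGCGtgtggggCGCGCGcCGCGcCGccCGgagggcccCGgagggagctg
Smim7: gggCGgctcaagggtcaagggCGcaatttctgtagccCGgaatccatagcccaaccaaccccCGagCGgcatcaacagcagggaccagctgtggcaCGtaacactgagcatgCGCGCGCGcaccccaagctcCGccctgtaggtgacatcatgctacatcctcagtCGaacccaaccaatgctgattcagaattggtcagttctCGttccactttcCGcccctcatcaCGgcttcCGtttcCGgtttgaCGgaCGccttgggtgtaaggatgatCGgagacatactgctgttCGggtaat
Atm: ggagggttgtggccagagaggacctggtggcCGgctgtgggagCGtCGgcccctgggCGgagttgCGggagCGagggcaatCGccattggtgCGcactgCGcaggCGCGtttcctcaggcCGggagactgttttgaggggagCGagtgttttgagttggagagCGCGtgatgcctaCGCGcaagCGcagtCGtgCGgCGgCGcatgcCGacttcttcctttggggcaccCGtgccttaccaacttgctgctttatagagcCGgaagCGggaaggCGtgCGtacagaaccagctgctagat
The windows hold 37, 33, 21 and 28 CG dinucleotides in the order given. Both strands of the Smim7 window were searched for TGACCA, and it is the only window of the 4 with a match.

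For contrast, 3 starts of head-to-head pairs at which no library had a peak are Kif4 at chrX:100625815-100626114 (plus strand, paired with Pdzd11), Ifit1 at chr19:34640639-34640938 (plus strand, paired with Ifit1bl2) and Best1 at chr19:10001584-10001883 (minus strand, paired with Rab3il1).
Kif4: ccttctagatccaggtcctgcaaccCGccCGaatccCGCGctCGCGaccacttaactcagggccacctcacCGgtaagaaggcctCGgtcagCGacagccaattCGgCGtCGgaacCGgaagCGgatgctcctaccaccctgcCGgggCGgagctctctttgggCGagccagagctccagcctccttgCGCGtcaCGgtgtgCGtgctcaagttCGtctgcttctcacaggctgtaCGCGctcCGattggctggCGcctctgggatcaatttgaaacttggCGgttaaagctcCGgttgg
Ifit1: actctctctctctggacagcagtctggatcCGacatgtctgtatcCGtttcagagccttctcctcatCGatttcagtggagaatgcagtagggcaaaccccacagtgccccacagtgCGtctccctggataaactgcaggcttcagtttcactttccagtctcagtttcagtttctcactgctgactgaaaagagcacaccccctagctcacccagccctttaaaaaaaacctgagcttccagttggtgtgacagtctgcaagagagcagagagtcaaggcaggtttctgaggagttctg
Best1: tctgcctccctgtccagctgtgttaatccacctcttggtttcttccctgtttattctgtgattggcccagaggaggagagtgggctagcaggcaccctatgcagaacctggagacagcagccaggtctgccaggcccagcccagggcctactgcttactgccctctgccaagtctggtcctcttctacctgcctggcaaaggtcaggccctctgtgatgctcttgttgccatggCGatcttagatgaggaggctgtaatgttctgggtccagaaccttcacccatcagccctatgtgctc
The Kif4 window holds 28 CG dinucleotides, as many as the Atm window, while Ifit1 holds 4 and Best1 holds 1. These 3 are examples and do not stand for their class. Over 210 windows of head-to-head starts with no 3-library summit, the median was 18 CG dinucleotides. Kif4 is a kinesin of chromosome condensation and cell division, Ifit1 an interferon-induced RNA-binding protein and Best1 a chloride channel of the retinal pigment epithelium.

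The 3 peak lists held 38739, 36466 and 43469 peaks, with a median summit pileup of 14, 18 and 20 fragments in libraries 1, 2 and 3. Library 1 rests on the thinnest background, 1.07 fragments per base, against 1.41 in library 2 and 1.95 in library 3. Its values may therefore be the least precise, which was not measured. Among 8 genes that define or subdivide LSK cells, Kit, Cd34, Flt3 and Procr had a 3-library region at an end, Ly6a and Thy1 had a peak in fewer libraries, and Slamf1 and Cd48 had none. None of the 8 lay at a region shared by 2 coding genes.

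Of the 1390 members, 1361 lay at the ends of 2 coding genes and 29 at the ends of 3. Together they touched 2697 different genes, 12.3% of the 21887 coding genes annotated on these chromosomes. A window of 250 bp in place of 1 kb would leave 675 members, and the 10000 strongest peaks of each library would leave 701. The summit lay a median of 105 bp from the nearer end and 258 bp from the second, both bounded at 1 kb by the rule. In single-end regions it lay a median of 155 bp from the end. The median width was 902.5 bp in members against 849 bp in single-end regions, and 982 members covered both nearest outer ends. On X there were 24 members, 1.73% of the set, while X holds 4.41% of the coding genes. Chromosome 19 had the highest share of its genes at a member (17.9%), followed by chromosomes 8 (17.4%) and 11 (17.2%). These shares are set against all coding genes, not against the close gene pairs or the regions of each chromosome.

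Head-to-head arrangement was the commonest type among the members. The nearest 2 ends were divergent starts in 754 regions (54.2%), a start and a finish of the same strand (head-to-tail) in 214 (15.4%) and convergent finishes (tail-to-tail) in 23. A further 26 had starts on the same strand, 21 a start and a finish on opposite strands and 2 finishes on the same strand. In the remaining 350 (25.2%) the strand of at least 1 gene was not known, including all 20 members on chromosome 18.

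The composition of the members depends on which gene pairs exist, so all pairs of coding genes with ends within 1 kb of each other were counted, 3541 in all. A pair counted as occupied when a 3-library summit lay within 1 kb of both ends, and 39.2% of all pairs did. Among pairs of known orientation, 754 of 896 head-to-head pairs were occupied (84.2%, 95% Wilson interval 81.6% to 86.4%). The share was 211 of 506 for head-to-tail pairs (41.7%, 37.5% to 46.0%) and 24 of 725 for tail-to-tail pairs (3.31%, 2.23% to 4.88%). Divergent pairs were thus occupied far more often than convergent ones, by a difference of 80.8 percentage points. It came to 44.9 points when each library kept its 10000 strongest peaks. These intervals cover counting error only, and a gene can enter several pairs.

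Each library gave the same order by itself. Head-to-head pairs were occupied at 87.4%, 89.8% and 89.2% in libraries 1, 2 and 3, head-to-tail pairs at 48.2%, 48.0% and 48.2%, and tail-to-tail pairs at 5.79%, 6.48% and 6.62%. No library's share of one type came near its share of another. Over all 3541 pairs library 1 stood apart, with 50.04% against 43.7% and 43.9% in libraries 2 and 3. In that count 276 pairs came from 24 genes, 21 of them protocadherins of the Pcdhg series, whose outer ends lie together on chromosome 18 at a peak of library 1 alone. Without those pairs the shares were 45.8%, 47.4% and 47.6%, and 42.5% of the 3265 remaining pairs had a 3-library region. None of the 276 had both strands known, so they enter none of the shares by orientation.

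**Figure D1:**
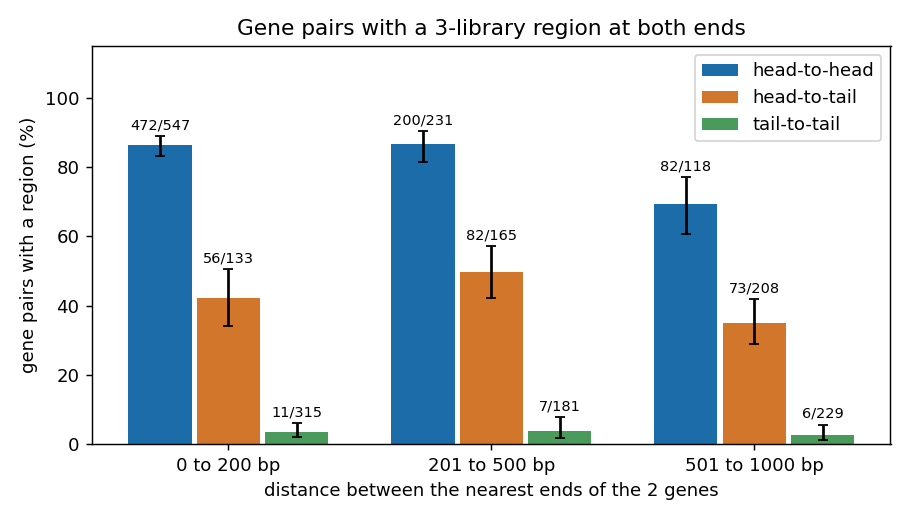
Share of coding gene pairs (percent, vertical axis) with a 3-library summit within 1 kb of both ends, by the distance between their nearest ends (bp) and by orientation. Bars carry 95% Wilson intervals and the counts behind them. Head-to-head bars stand above head-to-tail bars at every distance, from 86.3% and 42.1% at the shortest to 69.5% and 35.1% at the longest, and tail-to-tail bars stay under 4%.

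Within 1 kb, spacing moved the shares less than orientation did. The stretch in which a single summit can reach both ends shortens as spacing grows, and its part in these shares was not tested. Head-to-head pairs were occupied at 86.3% with ends up to 200 bp apart, 86.6% from over 200 to 500 bp and 69.5% from over 500 to 1000 bp. Head-to-tail pairs were occupied at 42.1%, 49.7% and 35.1% in the same bins, and tail-to-tail pairs at 3.49%, 3.87% and 2.62%. The lowest of these head-to-head shares was above the highest head-to-tail share. With ends over 1 kb and up to 2 kb apart, where a single summit can reach both ends only near the middle, the shares were 8.26% for head-to-head (9 of 109), 4.04% for head-to-tail (16 of 396) and 0.926% for tail-to-tail pairs (3 of 324).

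The same contrast held for single ends. A coding start that belongs to a head-to-head pair had a 3-library summit within 1 kb in 1510 of 1782 cases (84.7%). A start with no other coding end within 2 kb had one in 4971 of 14072 cases (35.3%), and the background over all coding starts with a known strand was 41.8%. Finishes that belong to a tail-to-tail pair were occupied in 63 of 1445 cases (4.36%), against 305 of 13828 finishes with no other coding end nearby (2.21%). Where the nearest 2 ends of a head-to-tail member are a start and a finish, the summit lay nearer the start in 186 of 214 regions (86.9%), a median of 137 bp from it and 461 bp from the finish. In the opposite-strand class 18 of 21 summits lay nearer the start. Of the 23 tail-to-tail members, 2 (8.70%) had a start of the RefSeq promoter windows within 1 kb. The share was similar at regions of a single finish, 26 of 339 (7.67%), and these windows do not cover every gene.

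Signal at the members was somewhat higher than at single-end regions. Fold enrichment is the caller's value for the summit relative to its local background, and the value of a region in a library is that of its strongest peak. Its median was 7.67, 7.86 and 7.57 in the members in libraries 1, 2 and 3, against 7.11, 7.42 and 6.79 in single-end regions. The quartiles of both classes overlapped in each library, from 5.84 to 9.89 in members and from 5.34 to 9.27 in single-end regions in library 1. The log2 difference of medians was 0.12 ± 0.04 (SD, n = 3), higher in 3 of 3 libraries (exact sign-flip permutation p = 0.25, two-sided). With 3 libraries this test cannot go below 0.25 and so cannot reach 0.05. The log2 difference was 0.077 with peaks of −log10 q of at least 5, 0.031 with the 10000 strongest peaks of each library and 0.18 with starts alone.

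Pileup, the number of fragments over the summit, had a median of 26, 35 and 43 in members in libraries 1, 2 and 3, against 22, 30 and 36 in single-end regions. Divided by each library's background, the log2 difference was 0.24 ± 0.02 (SD, n = 3), higher in 3 of 3 libraries (exact permutation p = 0.25), and 0.060 when each library kept its 10000 strongest peaks. The widest peak of a member was longer than that of a single-end region by 0.14 ± 0.04 on the log2 scale (SD, n = 3), also in all 3 libraries, and the joined regions were wider by 0.09. A fold enrichment of at least 10 in every library was reached by 195 of 1390 members (14.0%), 717 of 7123 single-end regions (10.1%) and 7.03% of all 3-library regions.

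Members were 6.05% of all 3-library regions, the share to set beside the counts that follow. No member was among the 100 regions with the highest mean fold enrichment, and 120 were among the top 1000 (12%), of which 76 were head-to-head. By pileup over background, 75 of the top 1000 were members (7.5%), which is nearer to their share of all regions. The highest mean fold enrichment was 17.7 among members, 42.9 among single-end regions and 46.3 among regions at no coding end.

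Orientation also separated the members by signal. The median fold enrichment in libraries 1, 2 and 3 was 8.27, 8.39 and 8.14 in head-to-head members, against 7.25, 7.58 and 7.06 in regions at a single coding start. Head-to-head members were higher in each library, by 0.18 ± 0.03 on the log2 scale (SD, n = 3, exact permutation p = 0.25). Of 754 head-to-head members 130 (17.2%) reached a fold enrichment of 10 in every library, against 597 of 5374 single-start regions (11.1%).

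Head-to-tail members went opposite ways on the 2 scales. Their median fold enrichment was 6.83, 6.73 and 6.30 in libraries 1, 2 and 3, lower than in single-start regions in all 3 by a log2 difference of -0.14 ± 0.05 (SD, n = 3, exact permutation p = 0.25). Their pileup over background was higher in all 3, by 0.29 ± 0.02 on the log2 scale (SD, n = 3, exact permutation p = 0.25). Fold enrichment divides by the local background and pileup over background by the library's, so the size of the local background moved with this result, and its part in it was not tested. Against head-to-tail members, head-to-head members were higher in fold enrichment by 0.32 ± 0.05 and lower in pileup over background by a log2 difference of -0.09 ± 0.02 (SD, n = 3, exact permutation p = 0.25 each).

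**Figure D2:**
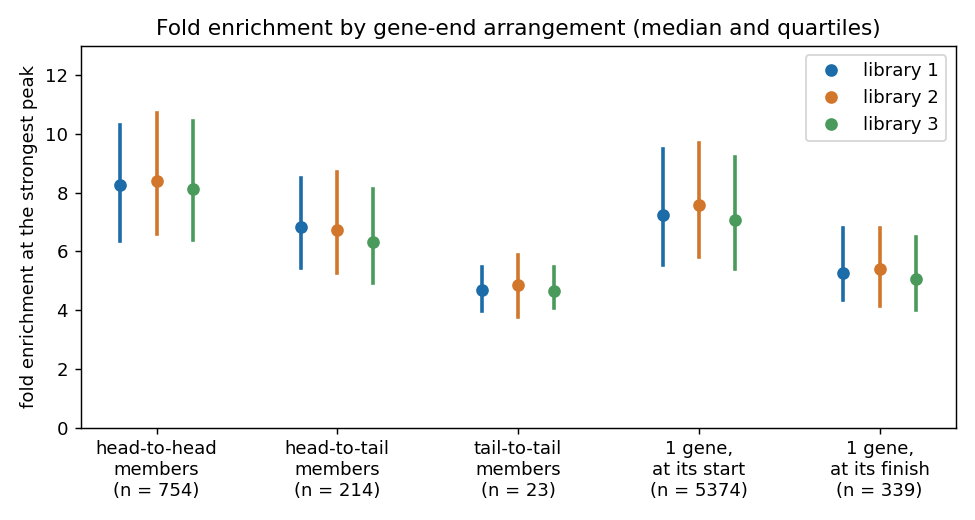
Fold enrichment of regions (vertical axis, a ratio over local background) by arrangement of the coding gene ends, with the median (point) and quartiles (line) in each library. Head-to-head members have medians from 8.14 to 8.39 and tail-to-tail members from 4.64 to 4.85. The quartiles of neighbouring classes overlap, except in library 1 between tail-to-tail members (upper quartile 5.48) and single-start regions (lower quartile 5.53).

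Tail-to-tail members had a median fold enrichment of 4.69, 4.85 and 4.64 in libraries 1, 2 and 3. Regions at a single finish had 5.27, 5.41 and 5.05, higher in each library by fold enrichment, while their pileup over background was higher in 1 library, equal in 1 and lower in 1. Only 1 of the 23 tail-to-tail members passed a fold enrichment of 10 in every library.

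The rule keeps each summit within 1 kb of both starts, which bounds how far apart they and the summit can lie. Inside that limit, the starts of head-to-head members lay close together and the summit close to both. The starts were a median of 39.5 bp apart (quartiles -109 and 137 bp, where a negative distance means that the genes overlap), with 481 pairs separate and 273 overlapping. The summit lay within 200 bp of the midpoint in 542 regions (71.9%) and within 500 bp in 724 (96.0%), and both starts lay inside the region in 657 (87.1%). The summit fell on the side of the plus-strand gene in 350 regions (46.4%) and of the minus-strand gene in 404. More than 1 peak in the region was seen in 6.37%, 2.39% and 1.99% of head-to-head members in libraries 1, 2 and 3. Most head-to-head regions thus held a single peak in each library. Coverage of both starts was measured on the joined region, not on each library's own peak. Peaks outside that region were not counted.

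The median distance of the summit from the midpoint was 110 bp in pairs 0 to 200 bp apart, 82.5 bp in pairs over 200 and up to 500 bp apart and 234 bp in pairs over 500 and up to 1000 bp apart. In pairs overlapping by over 200 bp it was 195 bp. The spread of the summit between libraries, a median SD of 71.6 bp in head-to-head members, is of the same order as those distances.

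**Figure D3:**
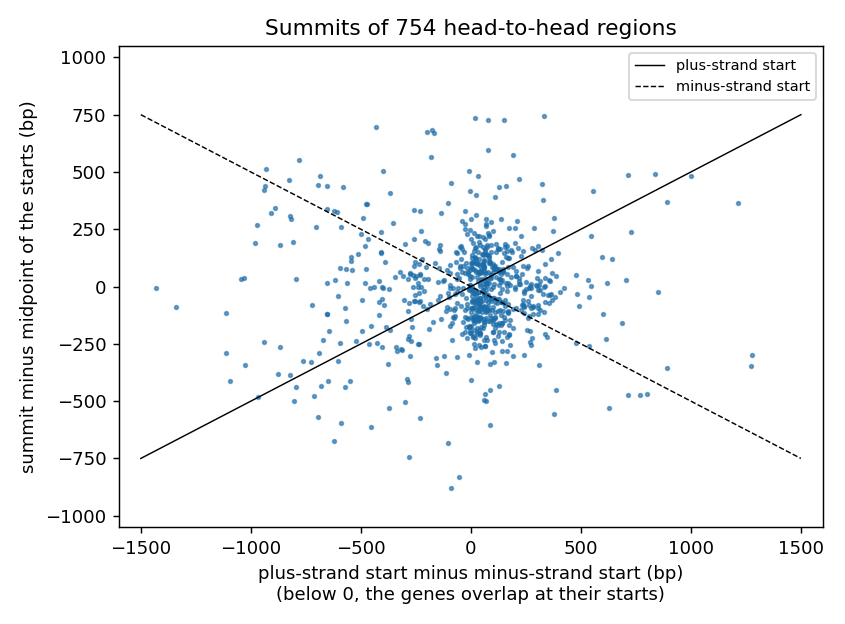
Position of the summit relative to the midpoint of the starts (bp, vertical axis) against the signed distance between the plus-strand and the minus-strand start (bp, horizontal axis) in 754 head-to-head regions, 1 point a region. The lines mark the starts, and 542 of the points lie within 200 bp of the midpoint.

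Sequence at the starts differed with arrangement. RefSeq windows of 300 bases, from 250 before a transcript start to 50 after it, were used where that start lay within 250 bp of the gene's outer end, which held for 1285 of 1502 starts of head-to-head members. Their median observed over expected CpG ratio was 0.851 with 25 CG dinucleotides and 63% GC, against 0.786, 22 and 62% at single-start regions and 0.563, 13 and 55.7% at all coding starts. Starts of head-to-head pairs with no 3-library summit had a ratio of 0.782, and other starts without one had 0.245. The 4 strong members printed above and the Kif4 window all lie above the median of all coding starts, but they are chosen examples. Other windows of strong head-to-head members were nearer that median. Armc10, whose region ranks next after that of Dtl, had a ratio of 0.571 with 17 CG dinucleotides. Ndufa4, the partner of Phf14, had 0.668 with 14.

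Several short motifs were counted in the same windows, on both strands, where a match says only that the letters are present. The ETS core CCGGAAG was in 28.6% of windows of head-to-head members, 18.3% of single-start regions and 12.2% of all coding starts. With the plus-strand window alone from each pair the share was 30.1%. The YY1 motif AAGATGGC was in 8.17%, 4.23% and 3.34% of the same 3 classes, and the palindrome TCTCGCGA in 5.14%, 2.31% and 1.51%. The TATA sequence TATAAA was in 4.67%, 6.38% and 14.3%, the RUNX motif TGTGGT in 9.34%, 12.5% and 15.3% and the GATA motif AGATAA in 4.28%, 5.47% and 10.4%. GC-rich words rise with GC content and AT-rich words fall with it, and these shares were not matched on it. The Sp and Klf box GGGCGG was in 68.3%, 72.2% and 45.6%, and the NF-Y box CCAAT in 41.8%, 41.5% and 40.2%. TGACCA was in 11.2% of windows of head-to-head members, 11.3% of those of single-start regions and 12.7% of all, so these letters were about as frequent in each class.

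The higher occupancy of paired starts was also seen within each tertile of the CpG ratio, with bounds at 0.298 and 0.75. The tertiles are broad, so the ratio can still differ between paired and isolated starts inside a tertile. The part of CpG content in the gap was not tested. In the lowest CpG tertile of all coding starts, 14 of 45 head-to-head starts were occupied (31.1%), against 217 of 4493 starts with no other coding end within 2 kb (4.83%). In the middle tertile the shares were 376 of 440 (85.5%) and 1636 of 3858 (42.4%), and in the highest 907 of 1022 (88.7%) and 2450 of 3340 (73.4%). The gap was smallest where CpG was densest. Fold enrichment of head-to-head members over single-start regions was higher by 0.17 ± 0.04 in the middle tertile and 0.14 ± 0.04 in the highest on the log2 scale (SD, n = 3), in all 3 libraries each time. In the lowest, with 4 head-to-head regions, the log2 difference was -0.16 ± 0.04.

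**Figure D4:**
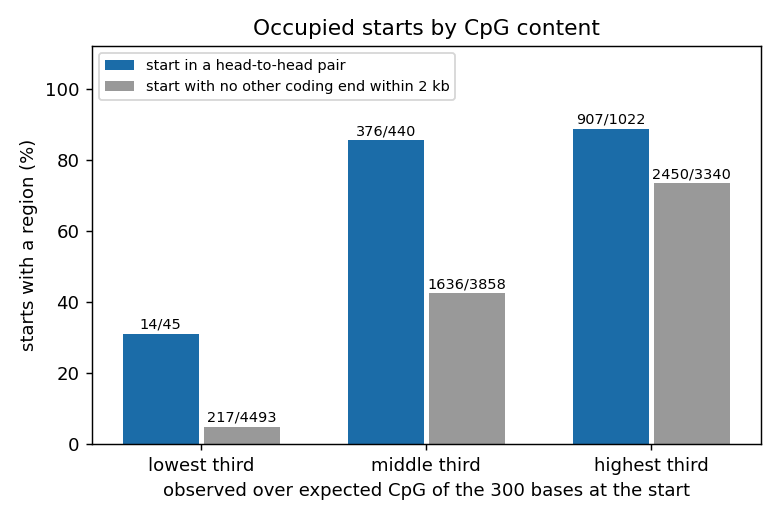
Share of coding starts (percent, vertical axis) with a 3-library summit within 1 kb, by the observed over expected CpG ratio of the 300 bases at the start. Starts in a head-to-head pair are at 31.1%, 85.5% and 88.7% and isolated starts at 4.83%, 42.4% and 73.4%, with counts above each bar.

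The strongest member lay by the starts of Dtl, the substrate receptor of a ubiquitin ligase that acts in DNA replication, and Ints7, a subunit of the Integrator complex (chr1:191575423-191576208). Its fold enrichment was 16.6, 16.8 and 19.7 in libraries 1, 2 and 3 (17.7 ± 1.73, SD, n = 3), with 68, 87 and 162 fragments at the summit. Library 3 was highest on both scales. The starts overlap by 4 bp, so one short stretch holds both starts. The summit lay 245 bp from the Dtl start and 249 bp from the Ints7 start, on the Ints7 side of both.

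The region of Armc10, an armadillo repeat protein, and Fbxl13, an F-box protein, had a fold enrichment of 18.4, 18.3 and 15.9 (chr5:21645502-21646400). The region of Phf14, a PHD finger protein, and Ndufa4, a subunit of the respiratory chain, had 15.3, 17.9 and 19.3 (chr6:11907076-11907964). Library 3 was lowest in one and highest in the other, and the 3 strongest members overlapped in their values, so they have no order beyond the spread between libraries.

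**Figure D5:**
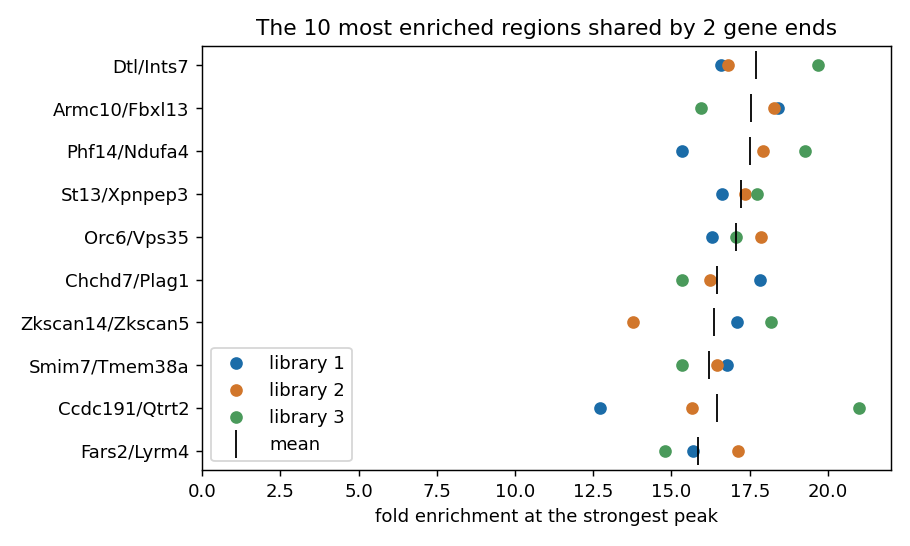
Fold enrichment at the strongest peak (horizontal axis, a ratio over local background) of the 10 members with the highest mean log2 fold enrichment, 1 point a library and a bar for the arithmetic mean. The libraries spread most at Ccdc191/Qtrt2, from 12.7 to 20.99, and the ranges of neighbouring regions overlap.

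The other 7 of the top 10 had mean fold enrichments from 15.9 to 17.2. St13, a co-chaperone of Hsp70, shared its region with Xpnpep3, a mitochondrial aminopeptidase, at 16.6, 17.3 and 17.7. Orc6, a subunit of the origin recognition complex, shared one with Vps35, a retromer subunit, at 16.3, 17.9 and 17.1. Fars2, the mitochondrial phenylalanyl-tRNA synthetase, shared one with Lyrm4, an iron-sulfur cluster assembly factor, at 15.7, 17.1 and 14.8. Chchd7/Plag1, Zkscan14/Zkscan5, Smim7/Tmem38a and Ccdc191/Qtrt2 complete the 10. Orientation was head-to-head in 5 of these 10, and in the other 5 the strand of 1 gene or both was not known.

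Ranked by pileup over background, a different set led. The highest was a head-to-tail region of 2 genes known by identifier, LOC108167694 and Gm20783, near the end of chromosome 9, with 215, 347 and 331 fragments in libraries 1, 2 and 3. It was also the widest member, at 3351 bp, while its fold enrichment was 7.91, 8.36 and 6.76, close to the median of the members. Agpat1, an acyltransferase of phospholipid synthesis, and Rnf5, a ubiquitin ligase of the endoplasmic reticulum, shared a region with 158, 257 and 272 fragments. Ubxn6/Hdgfl2 had 168, 235 and 278 fragments and Tacc3/Tmem129 had 135, 215 and 313. Tacc3 is a protein of the mitotic spindle. Pim3, a kinase that promotes survival and growth, shared a head-to-tail region with Gm33049 that had 150, 237 and 195 fragments.

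The weakest member by fold enrichment lay by the finishes of Nfix and Lyl1, transcription factors of blood stem cells, with a fold enrichment of 2.64, 1.94 and 2.25 and 58, 59 and 95 fragments. Its summit lay 994 and 998 bp from the 2 finishes, just inside the limit. Fbxl8/Hsf4 had 3.30, 2.51 and 2.52 with 14, 16 and 22 fragments, and Cdk2ap2/Pitpnm1 had 3.15, 2.88 and 2.49. Nfix/Lyl1 thus combined the lowest fold enrichment with a pileup above the members' median in each library.

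Members just inside the 1 kb limit were Icam4/Icam5, with the second end 999 bp from the summit and a fold enrichment of 4.88, 3.22 and 3.44, Tapbpl/Cd27 with 4.79, 6.41 and 5.23 and Tspyl2/Gpr173 with 9.35, 7.52 and 9.40. Just outside it were Nol3/Hsf4, with the second end 1000.3 bp away and 3.06, 3.67 and 3.14, Rbm18/Mrrf with 10.7, 12.1 and 9.89 and Setd6/Ndrg4 with 3.83, 3.30 and 4.15.

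In the other orientation classes the strongest head-to-tail member was that of Slc35a2, the UDP-galactose transporter, and Pim2, a survival kinase of blood cells, on X. Its fold enrichment was 14.5, 12.4 and 14.7. The strongest tail-to-tail member, at the finishes of Uggt2, a glycoprotein quality control enzyme, and Dnajc3, a co-chaperone of the endoplasmic reticulum, had 16.7, 13.6 and 11.2, which lies apart from the class median of 4.69, 4.85 and 4.64 in every library. Next in that class was Trim46/Muc1 at 10.9, 9.34 and 10.2. Among same-strand starts Zfand5/LOC115489044 led with 16.5, 15.9 and 13.4, and among opposite-strand pairs Phrf1/Gm51460 with 11.4, 11.1 and 12.9.

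Among the 29 members at 3 genes, the strongest was at Psma4, a proteasome subunit, AY074887 and Hykk, a hydroxylysine kinase, with a fold enrichment of 11.3, 12.4 and 13.4. Rad17, which loads the checkpoint clamp at damaged DNA, shared a region with Ak6 and Taf9, a subunit of general transcription factor complexes, at 11.9, 9.71 and 11.7. Nup62/Il4i1b/Atf5 had 11.7, 12.95 and 9.92 and Cmc4/Mtcp1/Brcc3 had 11.6, 9.97 and 12.7. Several of these genes overlap or share a start, so the ends counted there are not separate promoters.

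Of 16 pairs listed as examples of shared promoters, 10 lay at a member. Atm, the kinase that signals DNA double-strand breaks, and Npat, an activator of histone genes, had a fold enrichment of 14.6, 12.01 and 12.4. Prkdc, the catalytic subunit of DNA-dependent protein kinase, and Mcm4, a subunit of the replicative helicase, had 13.4, 15.1 and 18.9. Both pairs exceeded the members' upper quartile of 9.89, 10.2 and 9.87 in every library.

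Ppat/Paics, enzymes of purine synthesis, had 13.2, 12.9 and 13.9, and Hspd1/Hspe1, the mitochondrial chaperonin and its partner, had 11.4, 9.85 and 9.99. Brca1/Nbr1 had 10.9, 9.60 and 8.46, and its summit lay 650 bp from the Nbr1 start and 802 bp from the Brca1 start. Tap1/Psmb9, peptide transport and immunoproteasome genes of antigen presentation, had 5.85, 8.47 and 8.91. Sars2/Mrps12 had 3.85, 8.73 and 6.10, the widest relative spread of the 10. Trp53/Wrap53 and Col4a1/Col4a2 were lowest, at 4.81, 4.14 and 3.74 and at 5.65, 5.29 and 3.69, below the members' lower quartile in each library.

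The other 6 pairs were not members. The nearest ends of Tbp and Psmb1 are 1612 bp apart and those of Mrpl18 and Tcp1 1458 bp, and in both pairs 1 gene had a 3-library region. Son and Donson each had a 3-library region, but no ends of theirs lie within 2 kb of each other. In Surf1/Surf2 and Tk1/Afmid each gene had a peak near 1 of its ends but no 3-library region at either, and Col4a3/Col4a4 had no peak in any library.

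Gene groups differed in how often they lay at a member, against 12.3% of all coding genes and, for genes with an end within 1 kb of another coding end, 48.6%. Each group is given as a count, and genes of a group that share a region are not separate observations. DNA repair and replication genes were at a member in 33 of 93 cases, 33 of 50 in close pairs. The median of mean fold enrichment over their 31 regions was 9.64, against 7.71 over all members. Orc6/Vps35, Prkdc/Mcm4 and Fkbp3/Fancm led, the last with 16.5, 13.4 and 15.0; Fancm is a translocase at stalled forks.

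Mitochondrial ribosomal protein genes lay at a member in 31 of 78 cases (31 of 44 in close pairs), with a regional median of 7.16, and 21 of their 30 regions were head-to-head. Ppp1r10/Mrps18b led with 13.01, 15.2 and 14.9. Cytosolic ribosomal protein genes lay at a member in 17 of 85 cases (16 of 31), led by Snapc5/Rpl4 with 11.8, 12.7 and 10.2, where the finish of Rpl4 lies by the start of Snapc5. The cytosolic group had fewer close pairs, 36.5% of its genes against 56.4% in the mitochondrial group.

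Genes named as subunits of complex I lay at a member in 16 of 39 cases (16 of 25 in close pairs), led by Phf14/Ndufa4, whose Ndufa4 is now assigned to cytochrome c oxidase, and by Rbm10/Ndufb11 with 10.05, 13.8 and 11.4. Aminoacyl-tRNA synthetase genes, which charge tRNAs, were at 15 of 37 (14 of 17), led by Fars2/Lyrm4 and by Ubfd1/Ears2 with 8.93, 10.4 and 11.1. Proteasome subunit genes were at 9 of 39 (9 of 12), led by Psma4 and by Ss18l1/Psma7 with 8.74, 7.63 and 8.30.

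Histone genes had the highest share of the lists, 42 of 68 (38 of 43 in close pairs) over 22 regions, with a lower regional median of 6.003. H3c14/H2ac18 led with 11.7, 9.62 and 11.0. The regions of histone clusters were among the widest members, 2891 bp at H4c17/H2ac23 and 2566 bp at H2ac24/H4bc24. Histone genes are near-identical copies, so the signal of single copies is uncertain where reads map to several.

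Genes of the Zfp series of zinc finger proteins lay at a member in 35 of 394 cases (33 of 56 in close pairs), below the share of all coding genes, with a regional median of 9.14. Tubgcp2/Zfp511 led with 11.99, 15.9 and 14.9. Corepressor and remodeller genes, the partners of repressors such as Bcl11a, were at 4 of 30 (4 of 9): Rbbp4 with 13.3, 11.9 and 10.3, Hdac3 with 6.26, 6.42 and 6.75, Mta2 with 5.68, 7.04 and 5.59 and Gps2 with 5.88, 6.84 and 3.87. Rbbp4, a histone chaperone, shares a head-to-head region with Zbtb8os.

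Few genes of blood identity have a coding neighbour close enough to share a region. Of 28 stem cell transcription factor genes, 18 had a 3-library region at an end and 3 were in close pairs, of which 2, Etv6 and Lyl1, lay at a member, Etv6 head-to-head with Gm46977 at 8.70, 9.99 and 8.40. No gene of the lymphoid (20), myeloid (16), erythroid and megakaryocyte (16) or neuronal and hepatocyte (20) lists lay at a member, nor any of 1110 olfactory receptor or 53 keratin genes. A close coding neighbour was present for 2, 1, 2 and 4 genes in the first 4 lists, 9 olfactory receptor genes and 4 keratin genes. Those are 10%, 6.25%, 12.5%, 20%, 0.811% and 7.55% of each list, while 5426 of all 21887 coding genes have one. With so few genes in close pairs, the absence of members says little about any of these lists.

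Noncoding genes were rarer near the members. Leaving out chromosome 18, a noncoding gene end lay within 1 kb in 68 of 1370 members (4.96%) and in 1032 of 6944 single-end regions (14.9%). Head-to-head members had one in 20 of 754 cases (2.65%) and head-to-tail members in 25 of 214 (11.7%).

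Not every divergent pair had a region. Of the 896 head-to-head pairs, 59 (6.58%) had no peak in any library and 83 had peaks but no 3-library summit near both starts. Those without a peak include Peg3/Usp29, an imprinted pair, Zic1/Zic4, zinc finger genes of the developing brain, Gabrb1/Gabra4, neuronal receptor subunits, and Duox2/Duoxa2, which make hydrogen peroxide in the thyroid. They also include housekeeping or cell division genes, such as Kif4/Pdzd11, Parpbp/Nup37 and Cenpk/Ppwd1. These pairs were picked from the 59 after their values were seen.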

How the data were processed

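Per the submitters' processing notes, reads were handled with Bowtie2, SAMtools and MACS2 on mm10; versions and duplicate removal are not given in the sources used here. For each library the authors deposited a MACS2 peak list, so replicates were not pooled. In it, fold enrichment is the ratio of summit pileup to local background, and the deposited significance values are −log10 p and −log10 q, with lowest −log10 q of 1.30 to 1.31; the summit offset was used as deposited. Pileups were solved from fold enrichment and −log10 p and came out whole within 0.05 in 100% of peaks. The lowest background of a list was taken as the library background.

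Gene ends came from a RefSeq table of GRCm38.p6 and strands from RefSeq promoter windows, which cover 17492 of 21887 coding genes (79.9%) and none on chromosome 18. Python 3.11.15, pandas 2.3.3, numpy 2.4.6 and scipy 1.17.1 were used. Differences of medians were taken within each library and tested over 3 libraries by an exact sign-flip permutation test, after the code had been tested on simulated data. Regions were not treated as replicates. Named regions are the 10 strongest by fold enrichment and by pileup, the 3 weakest, up to 5 at most genes, the 5 widest, the 5 strongest of each arrangement, those nearest the 1 kb limit, the known pairs, and the strongest of each list. The members and lists were chosen with earlier results of these data known. After the files were seen, the pattern of the synthetase list, which had matched unrelated genes, was corrected and 2 motifs were shortened. The values of 1 known pair are not reported here. Alternatives were the peak threshold, overlap, window, number of libraries, starts alone, the widest peak's value and each library left out.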

Additional observations from a re-analysis of the deposited data

Results flagged for a closer look

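Peaks that missed the requirement of all 3 libraries also lay at shared gene ends and entered no comparison above. Of 27998 joined regions with a peak of 1 library, 229 (0.818%) had their summit within 1 kb of 2 or more coding gene ends, 54 of them head-to-head and 43 tail-to-tail. Of 9831 regions with peaks of 2 libraries, 155 (1.58%) did, 56 of them head-to-head and 14 tail-to-tail. Their median fold enrichment was 3.74 with 1 library and 4.39 with 2. These values are not set against the 1390 members, whose rule asks for a called peak in every library and so for stronger signal. With no control library, these peaks have no level to be set against. Groups of 3 libraries were not tested for outlying samples.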

How the results depend on the processing

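No direction reversed under any alternative, although the number of members and the head-to-head share have no sign that could reverse. The p-value of the test could not change a call, being 0.25 at best. Below, the values are the log2 difference in fold enrichment (0.12 as reported) and in pileup (0.24), the log2 width difference (0.09), the number of members (1390), the head-to-head share (54.2%) and the head-to-head minus tail-to-tail occupancy (80.8 points). With peaks of −log10 q of at least 5, fold enrichment gave 0.077, pileup 0.19, the share 55.8% and occupancy 73.4 points. With the 10000 strongest peaks of each library they were 0.031, 0.060, 57.9% and 44.9 points over 701 members. With 50% reciprocal overlap the share was 55.3% and occupancy 71.8 points. With a 500 bp window pileup was 0.21 and the share 62.9%, and with a 250 bp window 0.16 and 70.5%, with 675 members and 69.3 points. With at least 2 libraries, they were 0.16 (fold enrichment), 0.29 (pileup), 0.13 (width), 52.4% and 84.1 points. With starts alone, fold enrichment was 0.18 and pileup 0.20. The widest single-library peak gave a width difference of 0.14. Leaving out each library gave 0.11 to 0.16, 0.23 to 0.32, 0.11 to 0.14, 1419 to 1472 members, 53.3% to 53.7% and 81.1 to 82.9 points. The cause of these shifts was not tested. No paired analysis was possible because there is 1 group of libraries. Median summit pileup and background are lowest in library 1, so its values may be the least precise, which was not measured. No untagged library was analysed here.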
